A study of Mus musculus with 60 samples.

Results

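Interleukin-2 (IL-2) was blocked with an antibody while wild-type CD8 T cells were activated, and their messenger RNA was sequenced after 24 h. Of the 60 libraries of the series, 9 belong here, chosen by their labels: 4 from cells given anti-IL-2 and 5 from cells activated without it. All 9 came from Sh2b3+/+ mice of the NOD strain, which develops autoimmune diabetes, whose T cells expressed the OT-I transgene, which gives them a receptor for a peptide of ovalbumin. Naive CD8 T cells were taken from spleen by negative selection. Both groups received plate-bound anti-CD3 at 10 µg/mL and soluble anti-CD28 at 5 µg/mL, which engage the T cell receptor complex and its costimulatory receptor, and the anti-IL-2 group also received 10 µg/mL of the blocking antibody for the 24 h. No isotype control antibody is named in the labels, and the labels do not say whether libraries of a group came from separate mice or cultures, so the p-values reflect only variation among these libraries, which may be technical.

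The libraries are numbered in separate runs: IL21 to IL24 for anti-IL-2 (library names, not the cytokine), and AR152 to AR154 and AR53 to AR54 for untreated cells. The labels do not say what a run of numbers stands for. No anti-IL-2 library is numbered in either run of the untreated cells, so the antibody and whatever the run carries cannot be told apart. Differences are given against all 5 untreated libraries, and for many lists and genes against each untreated run too.

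IL-2 is made by T cells soon after activation and acts on the same cells through a receptor of 3 chains, IL-2Rα, IL-2Rβ and the common γ chain, encoded by Il2ra, Il2rb and Il2rg. The receptor signals through the kinases JAK1 and JAK3 to the transcription factor STAT5, which induces genes for survival, effector function and feedback inhibitors of the SOCS family. STAT5 binds the motif TTCNNNGAA, which reads the same on both strands. Sh2b3, deleted in other libraries of the series, encodes an adaptor that restrains cytokine receptor signalling.

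The promoter windows below are those of 2 feedback inhibitors and of Igtp, an interferon-induced GTPase, all 3 of them lower with anti-IL-2 (values follow). Each runs from 250 bases before to 50 bases after the annotated start, on the gene's strand, in RefSeq's GRCm38.p6 table, whose sequence is the reference strain's and not that of NOD mice. Capitals mark each TTCNNNGAA.
Cish, chr9:107296409-107296708, plus strand: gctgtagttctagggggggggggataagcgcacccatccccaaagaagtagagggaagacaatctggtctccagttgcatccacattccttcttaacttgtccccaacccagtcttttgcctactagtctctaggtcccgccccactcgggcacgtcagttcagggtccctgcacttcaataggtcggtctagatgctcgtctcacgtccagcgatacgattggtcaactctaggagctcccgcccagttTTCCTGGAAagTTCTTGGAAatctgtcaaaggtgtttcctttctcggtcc
Socs3, chr11:117969317-117969616, minus strand: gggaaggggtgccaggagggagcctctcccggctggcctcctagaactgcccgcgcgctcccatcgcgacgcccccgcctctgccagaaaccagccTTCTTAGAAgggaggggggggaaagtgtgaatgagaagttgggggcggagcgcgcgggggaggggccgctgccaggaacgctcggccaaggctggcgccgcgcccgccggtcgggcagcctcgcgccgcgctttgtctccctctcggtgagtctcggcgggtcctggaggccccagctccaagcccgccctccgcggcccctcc
Igtp, chr11:58199306-58199605, plus strand: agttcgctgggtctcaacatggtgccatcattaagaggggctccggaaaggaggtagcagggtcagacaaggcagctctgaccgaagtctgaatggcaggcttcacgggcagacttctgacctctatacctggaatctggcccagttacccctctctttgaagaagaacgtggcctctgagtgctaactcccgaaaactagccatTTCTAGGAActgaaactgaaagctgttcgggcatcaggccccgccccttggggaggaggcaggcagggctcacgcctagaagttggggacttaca
The Cish window holds 2 matches, which begin at bases 1 and 12 counted from the start. The matches of Socs3 and Igtp lie upstream of the start, that of Igtp 45 bases before it. Of the 32851 windows of the table, 8.3% hold at least 1 match and 0.457% hold at least 2. The windows of Socs1, Pim1, Bcl2, Id2 and Il2ra hold none, and that of Gzmb holds 1. A match is a description of the letters, not a measured binding site.

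Anti-IL-2 libraries held 16109495 to 22313146 counts and untreated libraries 16541115 to 26482096. Of 13273 genes with enough counts to test, 584 (4.4%) passed an adjusted p of 0.05 by edgeR's quasi-likelihood test with Benjamini-Hochberg adjustment, here named called: 239 were higher with anti-IL-2 (1.8%) and 345 lower (2.6%). Scaled by library totals alone, the split was 286 higher and 270 lower. Against AR152 to AR154 4085 genes were called (30.8%; 15.6% higher and 15.2% lower), and against AR53 and AR54 642 (4.84%; 2.37% higher and 2.47% lower). The untreated runs differed from each other at 3343 genes (25.2%), and AR152 to AR154 lay apart from the other 6 libraries on the first principal component, which held 36.0% of the variance. All 584 genes had 1 sign against both untreated runs. The test keeps the difference between the untreated runs in its error, so it could hardly call a gene of opposite signs. The shared sign was thus largely set by the selection. Of the 13273 genes, 78 were called against both runs with opposite signs. Of the 584, 287 were called against all 5 untreated libraries and against each run (2.16% of all genes; 129 higher, 0.972%, and 158 lower, 1.19%). With AR152 to AR154 left out, 1604 genes were called, and with AR53 and AR54 left out, 3857. With any 1 anti-IL-2 library left out, the 584 dropped to between 145 and 173.

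Markers of several other cell types were detected, and some moved with the run. Markers of γδ T cells had the highest sum among them (values follow with those genes). Dendritic cell and MHC class II markers summed to 51.5 to 66.8 CPM with anti-IL-2, 66.7 to 216 in AR152 to AR154 and 57.8 to 62.8 in AR53 and AR54, and CD4 and regulatory T cell markers to 52.9 to 64.8 CPM with anti-IL-2, 124.7 to 140.4 in AR152 to AR154 and 66.75 to 72.8 in AR53 and AR54. Most of the CD4 and regulatory T cell sum was Ikzf2. It was at 40.9 to 56.9 CPM with anti-IL-2, 110 to 129 in AR152 to AR154 and 55.8 to 59.6 in AR53 and AR54. Cd4 was at 0 to 1.93 CPM and Foxp3 at 0 to 3.65 CPM over the 9 libraries. These genes are named after their values were seen. Summed B cell markers reached 13.9 to 34.5 CPM (counts scaled to library size after TMM) with anti-IL-2, 28 to 105.8 in AR152 to AR154 and 18.5 to 27.7 in AR53 and AR54. Erythroid markers summed to 2.59 to 19.8 CPM with anti-IL-2, 22.7 to 140.0 in AR152 to AR154 and 3.38 to 18.1 in AR53 and AR54. Of 9 neutrophil markers, 4 were at 0 in all 9 libraries. Mitochondrial transcripts took 1.74% to 2.17% of counts with anti-IL-2, 2.07% to 3.64% in AR152 to AR154 and 1.41% to 1.62% in AR53 and AR54. Their part in the results was not tested. Fewer cells of a type and less RNA per cell cannot be told apart in bulk libraries. The 8 CD8 T cell markers were all present, at a summed 2272 to 2312 CPM with anti-IL-2, 3502 to 4049 in AR152 to AR154 and 2627 to 2804 in AR53 and AR54. Against all 5 untreated libraries, 4 of the 8 were called lower (Cd8b1, Trac, Cd2 and Thy1), beside 2.6% of all genes, and 0 higher. Against each run too, 3 were called lower (1.19% of all genes). The groups did not overlap for 6, which were lower (5.18% of all genes). The call of Trac ended without any 1 anti-IL-2 library (edgeR adjusted p = 0.0785 to 0.0921).

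Feedback inhibitors of the IL-2 receptor's pathway were lower with anti-IL-2. Of the 8 SOCS family genes, which encode proteins that bind activated receptors or JAKs and stop their signal, 3 fell (Socs1, Socs3 and Cish), all 3 against each untreated run too. Of all genes, 2.6% fell, and 1.19% against each run too. None of the 8 rose against all 5 untreated libraries. Against AR53 and AR54 4 were called lower and 1 higher (2.47% and 2.37% of all genes). The median log2 difference of the 8 was -0.64, beside 0.01 over all genes.

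Socs1, whose product inhibits JAK kinases directly, was at 40.7, 34.8, 36.5 and 42.4 CPM in the 4 anti-IL-2 libraries, against 125, 114 and 116 CPM in AR152 to AR154 and 139 and 121 CPM in AR53 and AR54. The groups did not overlap, and both untreated runs sat at about the same level. The log2 difference was -1.67 (SE 0.10, edgeR adjusted p = 1.19e-05), with -1.62 against AR152 to AR154 and -1.75 against AR53 and AR54. Socs1 had the smallest adjusted p of the 14 genes that also passed a test for a change of at least 1.5-fold (adjusted p = 0.000202).

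Cish, an inhibitor induced by STAT5, was at 7.57, 8.98, 9.85 and 7.53 CPM with anti-IL-2, against 24.6, 25.3 and 15.3 CPM in AR152 to AR154 and 69.9 and 78.3 CPM in AR53 and AR54. All anti-IL-2 libraries lay below all untreated ones, and the untreated runs stood apart from each other. The log2 difference was -2.33 (SE 0.44, edgeR adjusted p = 0.0136), with -1.35 against AR152 to AR154 and -3.13 against AR53 and AR54. Left out singly, each of the 4 anti-IL-2 libraries ended the call of Cish (adjusted p = 0.0515 to 0.0667), as did testing with no filter on low counts (0.101). In wild-type cells of the whole series, scaled together, Cish averaged 4.23 CPM at 0 h, 27.9 at 2 h, 12.5 at 6 h and 39.9 at 24 h; the anti-IL-2 mean was 7.91.

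Socs3, which inhibits receptors of the gp130 type, was at 12.1, 15.4, 11.3 and 12.9 CPM with anti-IL-2, against 28.7, 28.4 and 41.4 CPM in AR152 to AR154 and 25.1 and 22.5 CPM in AR53 and AR54, without overlap. The log2 difference was -1.18 (SE 0.19, edgeR adjusted p = 0.00611). Socs2, another STAT5-induced member, was at 0, 1.27, 1.01 and 0.153 CPM with anti-IL-2, against 1.75, 4.32 and 0.959 CPM in AR152 to AR154 and 11.04 and 17.1 CPM in AR53 and AR54. AR154 lay inside the anti-IL-2 range, and the log2 difference of -3.53 missed the threshold (SE 0.996, edgeR adjusted p = 0.0652). Socs2 was called by DESeq2 (adjusted p = 0.0402) and in an edgeR fit with a level for each run, the untreated runs weighted equally (0.0057).

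**Figure D1:**
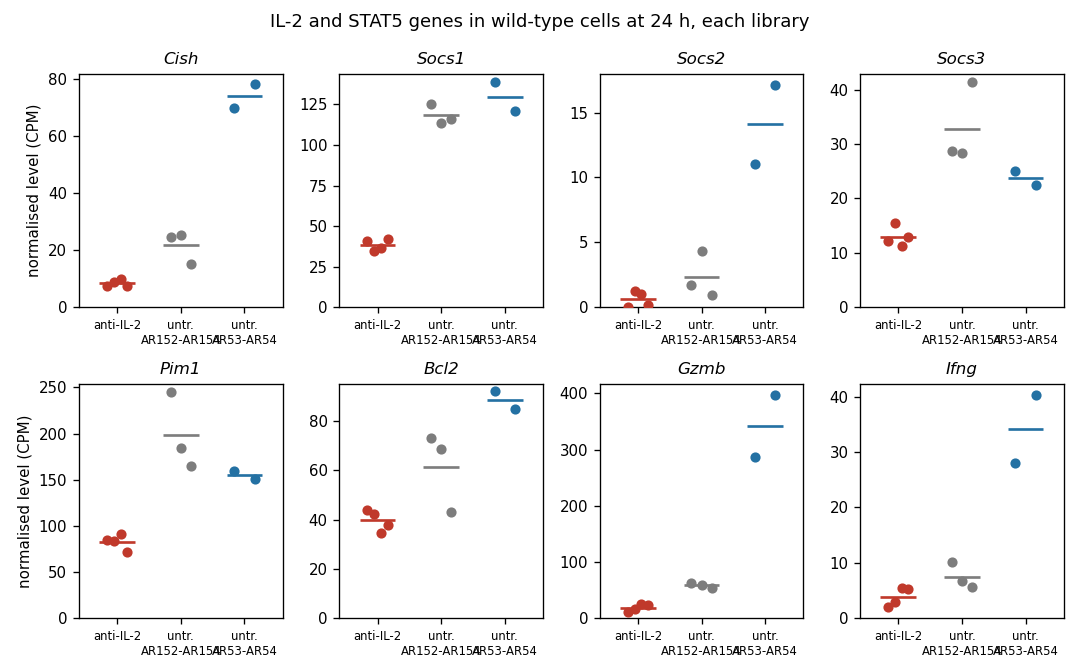
Normalised level in CPM (vertical axes, from 0) of 8 genes linked to IL-2 and STAT5 in each wild-type library at 24 h, with anti-IL-2 (red), untreated AR152 to AR154 (grey) and untreated AR53 and AR54 (blue); points are libraries and lines are means. Socs1 was below both untreated runs by a like amount, and Pim1 was below both, further below AR152 to AR154. Cish, Gzmb and Ifng were far higher in AR53 and AR54 than in AR152 to AR154.

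Pim1 and Bcl2, survival genes that STAT5 induces, fell. Pim1, a serine/threonine kinase, was at 84.3, 84.1, 90.8 and 71.4 CPM with anti-IL-2, against 245, 184 and 165 CPM in AR152 to AR154 and 160 and 151 CPM in AR53 and AR54. No library of one group reached the other, and the log2 difference was -1.13 (SE 0.14, edgeR adjusted p = 0.00191). The log2 difference of Pim1 was -1.26 against AR152 to AR154 and -0.91 against AR53 and AR54. Bcl2, which blocks mitochondrial apoptosis, was at 44.0, 42.3, 34.5 and 37.8 CPM with anti-IL-2, against 73.1, 68.4 and 42.9 CPM in AR152 to AR154 and 92.0 and 84.9 CPM in AR53 and AR54. AR154 overlapped the anti-IL-2 libraries. The log2 difference of Bcl2 was -0.87 (SE 0.19, edgeR adjusted p = 0.0253), a call that ended without any 1 anti-IL-2 library (adjusted p = 0.0724 to 0.102). Bcl2 was the 1 member called among 14 tested genes of the BCL2 family (4.4% of all genes were called), whose median log2 difference was 0.04. Pim2, the related kinase, averaged 320 ± 18.2 CPM with anti-IL-2 and 449 ± 96.2 CPM untreated (SD, n = 4 and 5). Its groups did not overlap, yet its log2 difference of -0.49 missed the threshold (edgeR adjusted p = 0.0685). Pim2 was called by DESeq2 (0.0161), with no filter (0.0275) and with the untreated runs weighted equally (3.84e-05).

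Across the 34 tested genes of the list of IL-2 and STAT5 induced genes, 7 were called lower (Cish, Socs1, Socs3, Pim1, Bcl2, Gzmb and Il18r1) and 1 higher (Capg), beside 2.6% and 1.8% of all genes. Il18r1 and Capg are named after their values were seen. The call of Il18r1 ended without IL21, IL22 or IL24 (adjusted p = 0.0539 to 0.0688), and that of Capg without AR153, AR154, IL21, IL22 or IL23 (0.054 to 0.0933). Of the 7, 6 were called lower against each untreated run. The list's median log2 difference was -0.30 against all 5 untreated libraries, 0.03 against AR152 to AR154 and -0.62 against AR53 and AR54, where 9 and 17 members were called lower (against 15.2% and 2.47% of all genes). With AR53 and AR54 as the untreated cells, fitted apart, 22 members were called lower. With any 1 anti-IL-2 library left out, between 3 and 4 members of the IL-2 and STAT5 list were called lower.

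A second list holds 14 genes that IL-2 signals are known to lower. Of these, 5 fell, among them Il7r, Klf2 and S1pr1, and 1 rose (Bach2), beside 2.6% and 1.8% of all genes. Its median log2 difference was -0.45 against all 5 untreated libraries, -0.63 against AR152 to AR154, where 8 were called lower and 1 higher, and -0.15 against AR53 and AR54, where 3 were called lower and 2 higher.

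**Figure D2:**
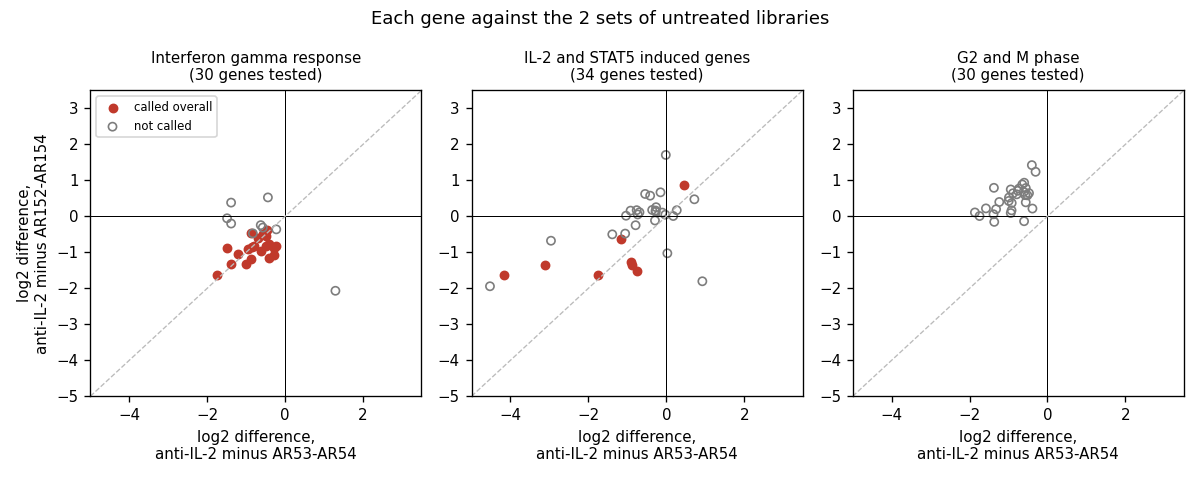
Log2 difference of anti-IL-2 from untreated AR53 and AR54 (horizontal axes) and from untreated AR152 to AR154 (vertical axes) for each tested gene of 3 lists; red points were called against all 5 untreated libraries and the dashed line marks equality. Interferon gamma genes have medians of -0.66 on the horizontal and -0.83 on the vertical axis, with 3 of the 30 of opposite sign on the 2 axes. The G2 and M phase genes are lower on the horizontal axis and mostly higher on the vertical one.

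The receptor's own chains were not called against all 5 libraries. With the untreated runs weighted equally, Il2ra and Il2rb were called lower (edgeR adjusted p = 0.000617 and 0.0311), and Il2rg was not (0.075). Il2ra was at 227, 208, 243 and 220 CPM with anti-IL-2, against 214, 259 and 193 CPM in AR152 to AR154 and 422 and 497 CPM in AR53 and AR54. The anti-IL-2 libraries lay within the AR152 to AR154 range and below AR53 and AR54. The log2 difference was -0.50 against all 5 (SE 0.25, edgeR adjusted p = 0.278), 0.02 against AR152 to AR154 and -1.03 against AR53 and AR54 (adjusted p = 1.97e-05). Il2rb averaged 414 ± 15.8 CPM with anti-IL-2 and 472 ± 37.4 CPM untreated, and Il2rg 384 ± 25.3 CPM with anti-IL-2 and 448 ± 64.1 CPM untreated (SD, n = 4 and 5; adjusted p = 0.245 and 0.293 by edgeR). Il2 itself was near 5.21 ± 2.16 CPM with anti-IL-2 and 6.85 ± 3.89 CPM untreated (SD, n = 4 and 5), with an adjusted p of 0.708 by edgeR, and Sh2b3 averaged 85.9 ± 8.86 CPM with anti-IL-2 and 74.9 ± 5.87 CPM untreated (edgeR adjusted p = 0.294).

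Among 22 genes of common γ chain receptors and JAK-STAT signalling, 2 rose and 2 fell (1.8% and 2.6% of all genes did). Jak2, a kinase of other cytokine receptors, averaged 335 ± 14.3 CPM with anti-IL-2 and 236 ± 19.6 CPM untreated (SD, n = 4 and 5), a log2 difference of 0.51 (SE 0.09, edgeR adjusted p = 0.00811) that was 0.48 against AR152 to AR154 and 0.54 against AR53 and AR54. Il21r, the receptor chain for IL-21, rose by 0.41 on the log2 scale (edgeR adjusted p = 0.0235). Among the falls was that of Il7r, the IL-7 receptor's own chain. Il7r was at 231, 168, 134 and 162 CPM with anti-IL-2, against 942, 780 and 668 CPM in AR152 to AR154 and 242 and 209 CPM in AR53 and AR54. Its log2 difference was -1.71 against all 5, -2.20 against AR152 to AR154 and -0.38 against AR53 and AR54, the last not called (adjusted p = 0.296). Leaving out any 1 library other than AR53 and AR54 ended the call of Il7r (adjusted p = 0.0639 to 0.127), as did testing with no filter (0.179). The call of Il21r ended without AR154 or any 1 anti-IL-2 library (0.053 to 0.108).

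Of 9 tested granule genes 2 fell, Gzmb and Nkg7 (2.6% of all genes did), with a median log2 difference of -0.09. None rose against all 5 untreated libraries. Against AR152 to AR154 3 were called lower and 2 higher (15.2% and 15.6% of all genes). Gzmb, the granule protease granzyme B, was at 10.5, 16.02, 24.5 and 24.2 CPM with anti-IL-2, against 62.0, 59.3 and 53.5 CPM in AR152 to AR154 and 286 and 397 CPM in AR53 and AR54. The anti-IL-2 libraries lay below every untreated one. The log2 difference of Gzmb was -3.19 against all 5 (SE 0.66, edgeR adjusted p = 0.0231), -1.63 against AR152 to AR154 and -4.18 against AR53 and AR54. Its call ended without any 1 anti-IL-2 library (adjusted p = 0.0636 to 0.0801) and with no filter on low counts (0.13). Nkg7, a granule membrane protein, averaged 102 ± 16.8 CPM with anti-IL-2 and 185 ± 26.9 CPM untreated (SD, n = 4 and 5; log2 difference -0.86, edgeR adjusted p = 0.00601). Prf1, which encodes the pore-forming perforin, averaged 78.3 ± 8.39 CPM with anti-IL-2 and 80.8 ± 14.2 CPM untreated (edgeR adjusted p = 0.890).

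Ifng, which encodes interferon gamma, was at 2.06, 2.91, 5.36 and 5.19 CPM with anti-IL-2, against 10.1, 6.78 and 5.56 CPM in AR152 to AR154 and 28.02 and 40.3 CPM in AR53 and AR54. The groups did not overlap, although the gap between IL23 and AR154 was small. The log2 difference of Ifng was -2.22 (SE 0.58) and lay just outside the threshold (edgeR adjusted p = 0.0501); it was -0.93 against AR152 to AR154 (adjusted p = 0.0298) and -3.13 against AR53 and AR54 (adjusted p = 2.46e-05). Without AR153 or AR154 Ifng was called (adjusted p = 0.0459 and 0.0464), as it was by DESeq2 (0.0172) and with the untreated runs weighted equally (0.000114). Of 19 effector cytokines and chemokines, 1 rose and 1 fell (1.8% and 2.6% of all genes did). Their median log2 difference was -0.07 against all 5, 0.23 against AR152 to AR154 and -0.48 against AR53 and AR54. Xcl1, a chemokine for dendritic cells, was at 673, 728, 759 and 594 CPM with anti-IL-2, against 290, 407 and 429 CPM in AR152 to AR154 and 356 and 489 CPM in AR53 and AR54, and rose by 0.81 on the log2 scale (edgeR adjusted p = 0.00811). Ltb, a membrane-bound lymphotoxin chain, fell by 1.15 on the log2 scale (edgeR adjusted p = 0.0182), a call that ended without any 1 anti-IL-2 library (0.0669 to 0.074) or with no filter (0.0968). The log2 difference of Ltb was -1.48 against AR152 to AR154 and -0.48 against AR53 and AR54. Lta and Osm, cytokines of the tumour necrosis factor and IL-6 families, had log2 differences of -0.74 and -0.93 that were not called (edgeR adjusted p = 0.0751 and 0.112). With the untreated runs weighted equally both were called (0.0051 and 0.0205), and Lta was also called by DESeq2 (0.0197) and with no filter (0.0342).

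Of 25 effector and memory transcription factors, 6 fell and 1 rose (2.6% and 1.8% of all genes did), and 2 of the 6 were called lower against each untreated run. Against AR152 to AR154 11 were called lower and 5 higher (15.2% and 15.6% of all genes). Against AR53 and AR54 4 were called lower and 3 higher (2.47% and 2.37%). Between the untreated runs, 18 of the 25 were called (25.2% of all genes). Id2, an inhibitor of E proteins that accompanies effector differentiation, was at 18.8, 17.6, 15.1 and 21.9 CPM with anti-IL-2, against 38.0, 32.7 and 33.8 CPM in AR152 to AR154 and 32.6 and 30.4 CPM in AR53 and AR54. The groups did not overlap and the untreated runs were alike, and the log2 difference of Id2 was -0.87 (SE 0.14, edgeR adjusted p = 0.00607). Bach2, a repressor of effector genes, rose by 0.50 on the log2 scale (edgeR adjusted p = 0.0351), with AR153 inside the anti-IL-2 range; its call ended without AR152, AR154 or any 1 anti-IL-2 library (adjusted p = 0.0707 to 0.121). Tbx21, which encodes T-bet, was at 10.3, 19.7, 27.0 and 27.0 CPM with anti-IL-2, against 22.6, 23.7 and 24.1 CPM in AR152 to AR154 and 67.2 and 73.5 CPM in AR53 and AR54 (edgeR adjusted p = 0.185 against all 5). Eomes, Bcl6 and Tcf7, regulators of memory and stem-like T cells, were not called either, with log2 differences of -0.52, 0.50 and -0.75 (edgeR adjusted p = 0.360, 0.363 and 0.0931). Tcf7 was 0.00 from AR53 and AR54 and -1.09 from AR152 to AR154, and was called without AR53 or AR54 (0.0222 and 0.0164) and by DESeq2 (0.018). With the untreated runs weighted equally, Tbx21 and Tcf7 were called lower (edgeR adjusted p = 0.00503 and 2.17e-05) and Bcl6 higher (0.000309), and Eomes was not called (0.205). Myc, the growth regulator, averaged 396 ± 24.4 CPM with anti-IL-2 and 389 ± 78.3 CPM untreated (SD, n = 4 and 5; log2 difference 0.02, edgeR adjusted p = 0.948), but the sign of that difference turned with the run, at 0.25 against AR152 to AR154 and -0.26 against AR53 and AR54.

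Genes of naive T cells were lower with anti-IL-2, mainly against AR152 to AR154. Of 22 naive and quiescent genes 10 fell and 1 rose (Bach2), beside 2.6% and 1.8% of all genes. Against each run too, 6 of the 10 were called lower (1.19% of all genes). The median log2 difference was -0.75 against all 5 untreated libraries, -1.04 against AR152 to AR154 and -0.20 against AR53 and AR54. Klf2, a factor that maintains quiescence and recirculation, was at 127, 132, 96.8 and 124 CPM with anti-IL-2, against 744, 527 and 652 CPM in AR152 to AR154 and 197 and 173 CPM in AR53 and AR54. The log2 difference was -1.94 against all 5 (SE 0.39, edgeR adjusted p = 0.0186), -2.42 against AR152 to AR154 and -0.63 against AR53 and AR54. S1pr1, the receptor for lymph node exit, had the same order, with a log2 difference of -2.21 against AR152 to AR154 and -0.57 against AR53 and AR54. On the scale of the whole series, the 24 h anti-IL-2 mean of Klf2 was 112 CPM, and wild-type cells at 0 h held it at 1166 CPM. The calls of Klf2 and S1pr1 ended without AR154 or any 1 anti-IL-2 library (0.0502 to 0.0872) and with no filter (0.125 and 0.134).

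Of 19 homing and chemokine receptors, 5 fell (2.6% of all genes did), all 5 against each untreated run (1.19% of all genes). None rose against all 5 untreated libraries. Against AR152 to AR154 9 were called lower and 3 higher (15.2% and 15.6% of all genes). Selplg, the selectin ligand PSGL-1, was at 245, 235, 227 and 256 CPM with anti-IL-2, against 617, 541 and 560 CPM in AR152 to AR154 and 401 and 427 CPM in AR53 and AR54. Its groups stood well apart, with a log2 difference of -1.08 (SE 0.13, edgeR adjusted p = 0.00127). Ccr9, a gut-homing chemokine receptor, fell by 1.16 on the log2 scale (edgeR adjusted p = 0.00806), and Itgb7, an integrin chain for the gut, by 0.71 (0.0208). The call of Itgb7 ended without any 1 anti-IL-2 library (0.0711 to 0.0853).

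Interferon gamma response genes were the list with the most calls. Of 30 tested members, 21 fell and none rose against all 5 untreated libraries, where 2.6% of all genes fell. Against each untreated run too, 17 were called lower (1.19% of all genes). Against AR152 to AR154 22 were called lower and 1 higher (15.2% and 15.6% of all genes). The median log2 difference was -0.75 against all 5 untreated libraries, -0.83 against AR152 to AR154 and -0.66 against AR53 and AR54. Of the 30, 23 did not overlap between the groups and were lower (5.18% of all genes). The 21 include GTPases that attack intracellular microbes (Igtp, Irgm1, Irgm2, Tgtp1, Tgtp2 and 6 of the Gbp family), antigen processing genes (Tap1, Tap2, Tapbp, Psmb10, B2m and Nlrc5) and the regulators Irf1 and Socs1. With any 1 anti-IL-2 library left out, 12 or 13 of the 30 were called lower. In the tests of at least 1.5-fold, 3 were (Socs1, Igtp and Tgtp1).

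Igtp was at 194, 196, 215 and 229 CPM with anti-IL-2, against 444, 454 and 404 CPM in AR152 to AR154 and 493 and 480 CPM in AR53 and AR54. Each anti-IL-2 library held about the same level and the untreated runs nearly met, and the log2 difference was -1.12 (SE 0.09, edgeR adjusted p = 0.000192). Tgtp1 was at 81.1, 55.9, 68.1 and 87.1 CPM with anti-IL-2, against 207, 173 and 166 CPM in AR152 to AR154 and 204 and 182 CPM in AR53 and AR54 (log2 difference -1.35, edgeR adjusted p = 0.000387). Irgm1 was at 127, 141, 161 and 178 CPM with anti-IL-2, against 294, 290 and 266 CPM in AR152 to AR154 and 293 and 299 CPM in AR53 and AR54 (log2 difference -0.93, edgeR adjusted p = 0.00106). For none of these 3 genes did the groups overlap. Tgtp1 and Tgtp2, and members of the Gbp family, are near-identical in sequence, so reads may be split between them. In wild-type cells over time, on the scale of the whole series, Igtp averaged 125 CPM at 0 h, 118 at 2 h, 208 at 6 h and 424 at 24 h; the anti-IL-2 mean was 195.

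Type I interferon-stimulated genes, which share targets with the interferon gamma list, had 9 of 38 tested members called lower against all 5 libraries (2.6% of all genes) and none higher. Of the 9, 7 were called lower against each run (1.19% of all genes). Their median log2 difference was -0.66 against all 5, -0.83 against AR152 to AR154 and -0.43 against AR53 and AR54. Zbp1, a sensor of Z-form nucleic acid, was at 43.3, 50.5, 47.7 and 46.8 CPM with anti-IL-2, against 71.7, 73.1 and 63.0 CPM in AR152 to AR154 and 81.9 and 75.6 CPM in AR53 and AR54 (log2 difference -0.63, edgeR adjusted p = 0.00680). Lgals3bp, Ifi35 and Trim30a fell by 0.96, 0.85 and 0.85 on the log2 scale (edgeR adjusted p = 0.00127, 0.00654 and 0.00864).

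Transcripts of the T cell receptor γ constant regions were lower. Tcrg-C1 was at 0.582, 0.607, 0.879 and 0.102 CPM with anti-IL-2, against 7.84, 4.56 and 2.56 CPM in AR152 to AR154 and 10.8 and 16.1 CPM in AR53 and AR54. Tcrg-C2 was at 0.952, 1.09, 1.495 and 1.17 CPM with anti-IL-2, against 13.2, 6.72 and 5.37 CPM in AR152 to AR154 and 10.3 and 13.9 CPM in AR53 and AR54. No anti-IL-2 library reached an untreated one for either gene. The log2 differences were -3.93 for Tcrg-C1, -3.06 for Tcrg-C2 and -2.55 for Tcrg-C4 (edgeR adjusted p = 0.00601, 0.00114 and 0.000308). Segments of this family share sequence to differing degrees, so the counts of these 3 may not be independent of each other.

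Of the 6 tested markers of γδ T cells, 4 fell (Trdc, named after its values were seen, besides the 3 segments) and 1 rose, all 5 against each untreated run. Of all genes, 1.19% fell and 0.972% rose against each run. The summed marker level was 146 to 173 CPM with anti-IL-2, 316 to 365 CPM in AR152 to AR154 and 249 to 251 CPM in AR53 and AR54. Most of that sum was Trdc, at 116 to 137.5 CPM, 260 to 293 CPM and 170 to 182 CPM in the same order. Cd163l1, a scavenger receptor with expression in γδ T cells, was at 1.64, 1.70, 0.748 and 1.02 CPM with anti-IL-2, against 7.66, 7.74 and 6.14 CPM in AR152 to AR154 and 8.46 and 5.51 CPM in AR53 and AR54 (log2 difference -2.48, edgeR adjusted p = 0.00262).

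Several genes rose with anti-IL-2 against each untreated run. Mir155hg, the host transcript of the microRNA miR-155, was at 59.0, 62.9, 62.3 and 51.9 CPM with anti-IL-2, against 22.9, 31.3 and 25.95 CPM in AR152 to AR154 and 19.5 and 22.2 CPM in AR53 and AR54. The groups lay far apart and the log2 difference was 1.28 (SE 0.14, edgeR adjusted p = 0.000959), with 1.14 against AR152 to AR154 and 1.499 against AR53 and AR54. The mature microRNA was not measured. It is shown because its seed, bases 2 to 8 in capitals, sets its targets.
mmu-miR-155-5p, RefSeq GRCm38.p6, chr16:84714143-84714165, plus strand: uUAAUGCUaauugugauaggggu

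On the scale of the whole series, Mir155hg averaged 0.183 CPM at 0 h, 39.2 at 2 h, 30.5 at 6 h and 22.7 at 24 h in wild-type cells; the anti-IL-2 mean was 55.1.

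Klrc1, which encodes the inhibitory receptor NKG2A, was at 27.2, 27.6, 33.6 and 35.3 CPM with anti-IL-2, against 1.99, 3.90 and 5.63 CPM in AR152 to AR154 and 12.9 and 14.1 CPM in AR53 and AR54. Each run was below the anti-IL-2 libraries, and the log2 difference was 1.99 (SE 0.43, edgeR adjusted p = 0.0253), a call that ended without AR153, AR154 or any 1 anti-IL-2 library (0.0564 to 0.0865) or with no filter (0.144). Igsf3, an immunoglobulin superfamily protein, averaged 31.6 ± 2.99 CPM with anti-IL-2 and 10.2 ± 2.65 CPM untreated, and Lamc1, a laminin chain, 27.3 ± 6.43 CPM with anti-IL-2 and 8.80 ± 2.24 CPM untreated (SD, n = 4 and 5; edgeR adjusted p = 0.00118 and 0.00209). Mdn1, a factor of ribosome assembly, was at 552 ± 77.4 CPM with anti-IL-2 and 211 ± 58.8 CPM untreated (SD, n = 4 and 5; edgeR adjusted p = 0.00262). Adamtsl2, a secreted matrix protein, had the largest rise among the 124 rises eligible for naming: its log2 difference was 2.09 (edgeR adjusted p = 0.0347), 1.61 against AR152 to AR154 and 3.27 against AR53 and AR54, and its call ended without AR152 or any 1 anti-IL-2 library (0.0644 to 0.108) and with no filter (0.124). Vegfa, the vascular growth factor, rose by 1.42 on the log2 scale (edgeR adjusted p = 0.0208), and its call ended without AR154 or any 1 anti-IL-2 library (0.0509 to 0.0908).

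**Figure D3:**
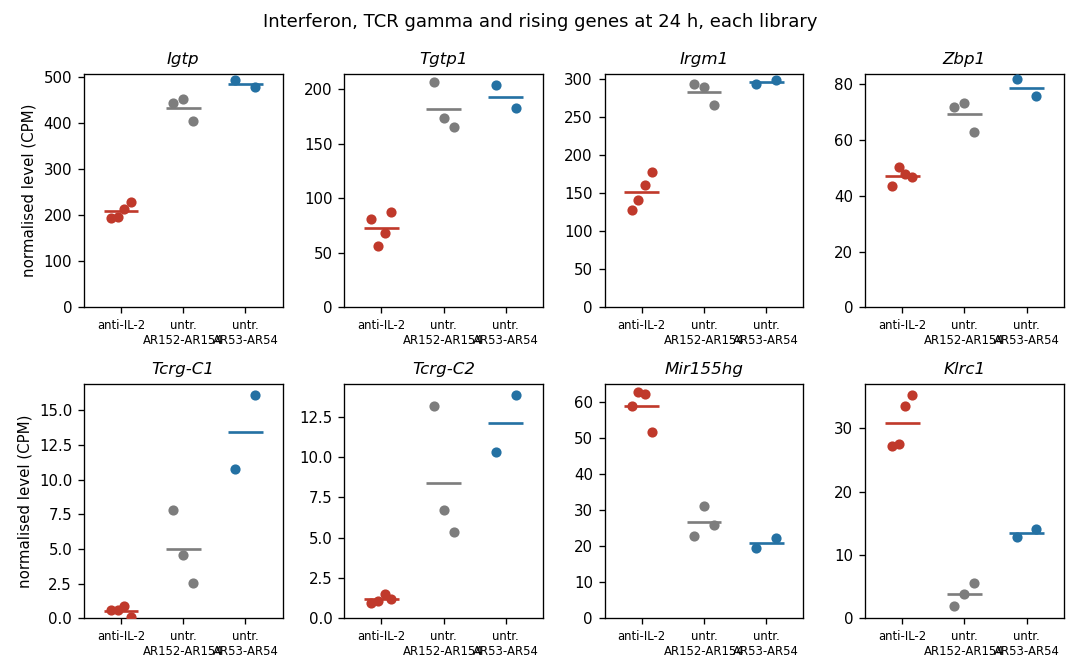
Normalised level in CPM (vertical axes, from 0) of 8 further genes in each wild-type library at 24 h, with anti-IL-2 (red), untreated AR152 to AR154 (grey) and untreated AR53 and AR54 (blue); points are libraries and lines are means. The interferon and T cell receptor γ genes are lower with anti-IL-2 than in both untreated runs, and Mir155hg and Klrc1 are higher.

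Further falls included Il10ra, the IL-10 receptor chain, at 10.2, 12.0, 11.3 and 19.6 CPM with anti-IL-2, against 68.6, 50.1 and 58.4 CPM in AR152 to AR154 and 30.7 and 30.6 CPM in AR53 and AR54 (log2 difference -1.84, edgeR adjusted p = 0.00486). Vim, the filament protein vimentin, was at 18.3, 16.1, 14.9 and 17.9 CPM with anti-IL-2, against 81.4, 28.9 and 32.7 CPM in AR152 to AR154 and 74.6 and 93.0 CPM in AR53 and AR54 (log2 difference -1.89, edgeR adjusted p = 0.00811, and 0.0662 with no filter). Serpina3g, a protease inhibitor, and F2rl1, a protease-activated receptor, fell by 1.90 and 1.80 on the log2 scale (edgeR adjusted p = 0.00843 and 0.00905). The groups of Il10ra and Vim did not overlap, with AR153 and AR154 nearest to the anti-IL-2 libraries for Vim. Thy1 and Cd2, surface proteins of T cells, fell by 0.79 and 0.90 (edgeR adjusted p = 0.00127 and 0.0145), and the call of Cd2 ended without IL21, IL23 or IL24 (0.0577 to 0.0674).

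Antigen receptor signalling genes moved both ways: of 26, 2 rose and 3 fell (1.8% and 2.6% of all genes did). Cd5 and Cd6, receptors that dampen the T cell receptor signal, rose by 0.51 and 0.55 on the log2 scale (edgeR adjusted p = 0.0208 and 0.00659), and Prkcq, the kinase PKCθ, fell by 0.73 (0.00806). The other falls were of Cd247 and Cd8b1, chains of the receptor complex and the CD8 coreceptor, at -0.82 and -0.90 (edgeR adjusted p = 0.0349 and 0.0490), calls that ended without any 1 library other than AR53 and AR54 (0.0672 to 0.149). Of the 3 falls, only that of Prkcq was called against each untreated run. Cd8b1 differed by -1.23 from AR152 to AR154 and by -0.19 from AR53 and AR54. The call of Cd5 ended without any 1 anti-IL-2 library (0.0628 to 0.088). Of 24 immediate early genes, 3 rose (Nr4a2, Dusp6 and Rel) and 2 fell (Egr3 and Dusp5), beside 1.8% and 2.6% of all genes. Each of these 5 calls ended without any 1 anti-IL-2 library and without 1 or more of AR152 to AR154 (adjusted p = 0.0561 to 0.169). Hsph1, a heat shock protein, was the 1 of 17 tested genes of RNA quality and handling stress to pass against all 5 libraries, with a log2 difference of 0.49 (edgeR adjusted p = 0.00793). Against AR152 to AR154 4 of the 17 were called higher and 8 lower (15.6% and 15.2% of all genes). Between the untreated runs 10 were called (25.2% of all genes). The list's median log2 difference was -0.53 against AR152 to AR154 and 0.24 against AR53 and AR54.

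Cell cycle and metabolic lists had 0 to 2 calls each against all 5 libraries. The sign of their medians turned with the untreated run, save for amino acid transport and ATF4 genes. Those had medians of 0.34 against AR152 to AR154 and 0.18 against AR53 and AR54. None of the 30 G2 and M phase genes was called against all 5 libraries, by edgeR or DESeq2, and 3 had an unadjusted p under 0.05 by edgeR, as had 2717 of all genes. Their median log2 difference was 0.55 against AR152 to AR154, where 16 were called higher, and -0.84 against AR53 and AR54, where 18 were called lower. All 30 were called between the untreated runs, with a median of -1.46 for AR152 to AR154 minus AR53 and AR54. For 31 S phase genes the median was 0.70 against AR152 to AR154 and -0.11 against AR53 and AR54, and 1 rose against all 5 (Ung). MYC targets and ribosome biogenesis had 2 rises in 30 (Polr1a and Utp20), glycolysis and hypoxia 1 in 25 (Vegfa), cholesterol and fatty acid synthesis 1 in 26 (Acaca), and amino acid transport and ATF4 genes 2 in 21 (Ddit4 and Slc1a5). Beside these counts, 1.8% of all genes rose. The calls of Ung, Polr1a, Utp20, Acaca and Slc1a5 ended without any 1 anti-IL-2 library or any 1 of AR152 to AR154 (adjusted p = 0.0525 to 0.132), save that of Ung without IL21 and that of Utp20 without AR152, and the call of Ddit4 ended without IL22 or IL23 (0.0528 to 0.0548). Dusp5, Dusp6, Rel, Cd247, Cd8b1, Ung, Polr1a, Acaca and Slc1a5 are named after their values were seen. None of 25 oxidative phosphorylation genes, 21 p53 targets or 11 inhibitory receptors was called against all 5 libraries by edgeR, with 1, 6 and 4 at an unadjusted p under 0.05 and 0, 1 and 3 called by DESeq2.

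**Figure D4:**
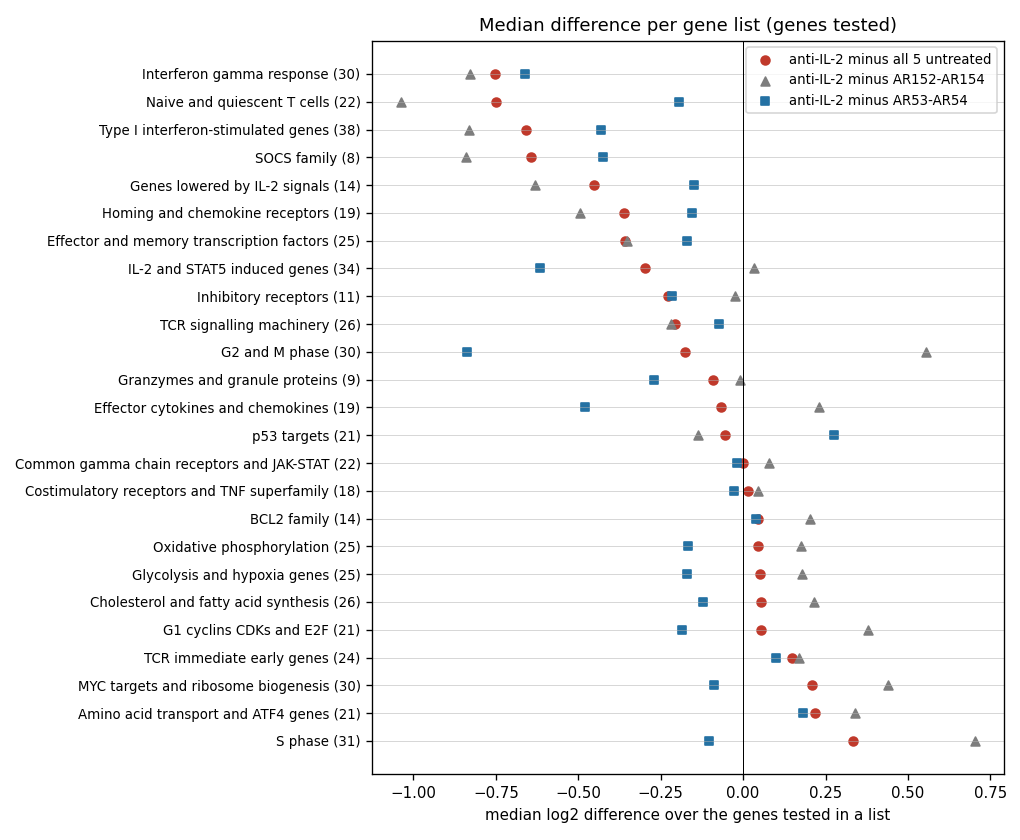
Median log2 difference (horizontal axis) over the tested genes of 25 lists, with the number tested in brackets, for anti-IL-2 minus all 5 untreated libraries (red circles), minus AR152 to AR154 (grey triangles) and minus AR53 and AR54 (blue squares). Interferon gamma genes are at -0.75, -0.83 and -0.66, and G2 and M phase genes at -0.175, 0.55 and -0.84.

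The same antibody was given to cells that lack Sh2b3, in 4 libraries numbered in the same run as the wild-type anti-IL-2 ones, with 5 untreated knockout libraries numbered in both runs of the untreated cells. Sh2b3 itself was at 18.02 ± 4.07 CPM with anti-IL-2 and 11.6 ± 0.974 CPM untreated in knockout cells (SD, n = 4 and 5, scaled over 18 libraries). In knockout cells 832 of 14778 genes were called (5.63%; 2.81% higher and 2.81% lower). Of the 21 interferon gamma genes that fell in wild type, 20 fell in the knockout, and of the 7 IL-2 and STAT5 genes, 6. Cish averaged 9.02 ± 3.33 CPM with anti-IL-2 and 99.0 ± 19.6 CPM untreated in knockout cells (SD, n = 4 and 5), a log2 difference of -3.46 (edgeR adjusted p = 0.000222). Il2ra, not called in wild type, was at 217 ± 21.4 CPM with anti-IL-2 and 461 ± 70.7 CPM untreated in knockout cells (log2 difference -1.09, edgeR adjusted p = 0.00713). Ifng and Socs2 had log2 differences of -3.78 and -4.81 in knockout cells (edgeR adjusted p = 0.00643 and 0.00640) and -2.22 and -3.53 in wild-type cells. The difference between the genotypes' responses was called for 0 of 14778 genes by edgeR, with 650 at an unadjusted p under 0.05, for 1 gene by DESeq2 (Gm10180) and for 1 with a term for the untreated runs (Gar1), both named after their values were seen. That test recovered 44.9% of differences of 1 log2 unit and 61.2% of differences of 2 when planted in simulated counts of 14149 genes, which held no shift shared by a run.

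**Figure D5:**
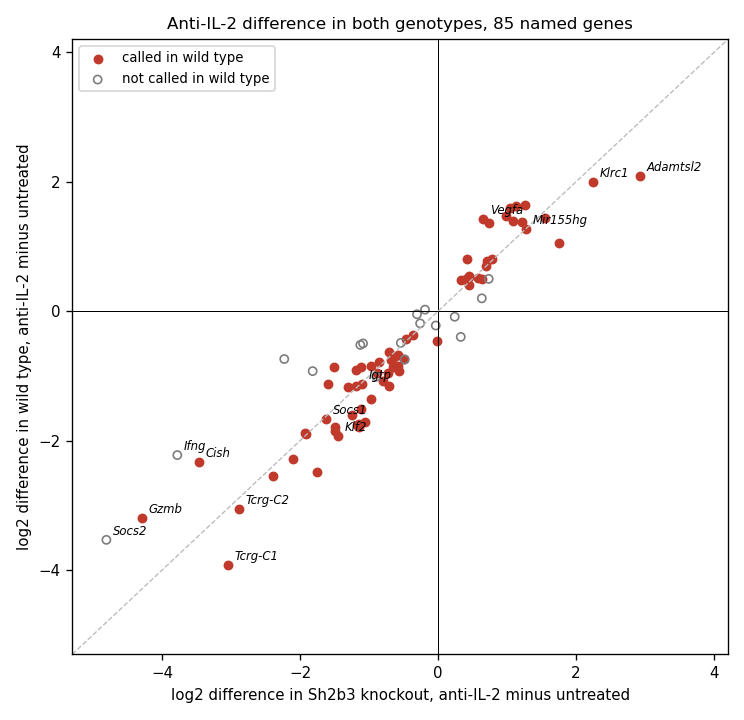
Log2 difference of anti-IL-2 from untreated in Sh2b3 knockout cells (horizontal axis) and in wild-type cells (vertical axis) for 85 named genes; red points were called in wild type and the dashed line marks equality. Socs1 lies at -1.62 in the knockout and -1.67 in wild type, and Cish and Gzmb are further from 0 in the knockout, differences between genotypes that were not called.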

How the data were processed

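Messenger RNA of 9 wild-type and 9 Sh2b3 knockout libraries at 24 h was analysed from 1 table of counts per gene that the authors deposited for 60 libraries, and all of its columns were mapped to samples. Per the submitters' processing notes, the authors checked reads with FastQC 0.119.9, aligned them to GRCm39 with STAR 2.7.9a, handled them with SAMtools and Picard 2.42.2, and counted them with featureCounts 2.0.1 of Subread. The annotation and strand setting are not given in the sources used here, so overlapping and antisense genes are not separated. RNA was extracted with either of 2 kits, per the labels' protocols, with no kit given per library. Names from GENCODE M21 matched 52081 of 55414 identifiers, which held 99.6% of the counts. No 2 libraries were duplicates.

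Counts were filtered with filterByExpr (minimum count 10), scaled by TMM and tested in edgeR 4.0.16 under R 4.3.3 with a robust quasi-likelihood F test, adjusted over all genes. A fit with 3 levels gave the difference from each untreated run, and a fit of 18 libraries the knockout's difference and the interaction. DESeq2 1.42.0, other scalings, no filter, a 1.5-fold test and each library left out were alternatives. In counts simulated for the 9 libraries (12824 genes tested), 64.2% of planted changes of 1 log2 unit and 78.1% of 2 were recovered, with 5 false calls. The simulated libraries were independent and held no shift shared by a run. The simulation therefore cannot show how many calls a difference between runs would make. Levels are CPM over the 9 libraries, and errors of log2 differences are standard errors. Precision is set by the 16109495 to 26482096 counts per library and by the number of libraries.

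Named genes were a fixed set around IL-2 signalling, the 12 largest rises and 12 largest falls called against each run and averaging 4 CPM or more in a group, and up to 4 members of each of 36 lists; those of most weight are given. A few list members are counted but not reported by name here. The comparison, lists and rule were chosen with earlier results of these data known. Figures were drawn with matplotlib 3.10.9.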

Additional observations from a re-analysis of the deposited data

Results flagged for a closer look

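Among the 85 named genes, each in 2 groups of libraries, 10 of 170 groups held a library far from the others of its group; chance flags about 1 in 20. Among anti-IL-2 libraries, IL21 stood apart for Id3 (96.3 CPM, the others 111.8 to 113.2) and Farp2 (14.1 CPM, the others 7.37 to 7.70), IL22 for Thy1 (337 CPM, the others 301 to 307) and Pecam1 (63.0 CPM, the others 57.5 to 58.4), IL23 for Lamc1 (36.8 CPM, the others 23.1 to 24.8) and Ccnd3 (139 CPM, the others 128 to 130.0), and IL24 for Cd6 (741 CPM, the others 842 to 860). Among untreated libraries, AR154 stood apart for Irgm1 (265.9 CPM, the others 289.6 to 298.8) and Egr3 (168 CPM, the others 216.5 to 227), and AR153 for Bach2 (377 CPM, the others 261 to 280).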

How the results depend on the processing

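The 584 genes called for anti-IL-2 against all untreated libraries (239 higher, 345 lower) were 580 with DESeq2 size factors, 556 with library totals and 676 with no filter, but 1310 by DESeq2 (525 and 785), 14 in the test of at least 1.5-fold (4 and 10), 2099 with the untreated runs weighted equally (999 and 1100), 1604 with AR53 and AR54 as the untreated cells (851 and 753) and 3857 with AR152 to AR154 (1820 and 2037). With each library left out they ranged from 145 to 1223 (56 to 407 higher, 89 to 816 lower); single AR53 or AR54 left out gave 1077 and 1223, and AR152, AR153 or AR154 gave 343, 384 and 278. Against AR53 and AR54, the 642 (314 and 328) became 973 with no filter (510 higher), 1025 by DESeq2 (477 and 548) and 56 past 1.5-fold (9 and 47), and 153 to 967 with each library left out (31 to 481 higher, 122 to 486 lower). Against AR152 to AR154, the 4085 became 621 past 1.5-fold (187 and 434), and 3247 to 4240 (1593 to 2198 higher, 1654 to 2042 lower), and with library totals the split was 2753 higher and 1656 lower. Between the untreated runs, 3343 became 459 past 1.5-fold (264 and 195), 1748 to 3885 with a library left out (880 to 1861 higher, 868 to 2024 lower), and 1463 and 1975 with totals. The interaction had 0 calls, 1 by DESeq2 and 1 with a run term (both lower), and 0 with each library left out. The 287 genes called against each run became 442 by DESeq2, 12 past 1.5-fold and 87 to 349 with a library left out. Interferon gamma members called lower were 21, 3 past 1.5-fold and 12 to 22 with a library left out. IL-2 and STAT5 members called lower were 7, 13 by DESeq2, 1 past 1.5-fold, 15 with runs weighted equally, 22 with AR53 and AR54 and 3 to 8 with a library left out.

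Of 68 named genes called, 37 stayed called with each of the 9 libraries left out, 68 by DESeq2, 66 with library totals, 53 with no filter and 10 in the test of at least 1.5-fold. Of the named genes not called, 10 were called with runs weighted equally, 5 by DESeq2 and 2 with no filter. Genes that were not called changed sign: Il2 was 0.21, Prf1 0.11 against AR152 to AR154; Il2rg was 0.015, Eomes 0.41, Id3 0.105 and Myc -0.27 against AR53 and AR54; Myc was -0.004 with runs weighted equally and -0.04 to 0.10 with a library left out, and Prf1 was 0.008 with totals and -0.11 to 0.053 with a library left out. The causes were not tested. No paired analysis was possible because no replicate numbers in the labels link the groups. With 4 and 5 libraries in 2 or 3 runs, antibody and run cannot be told apart.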
